A study of Rattus norvegicus with 8 samples.

Results

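Brown adipocytes burn fatty acids to make heat, and 7 rat genes tied to that work were followed over 8 thyroid libraries. They were chosen by name, as genes known for brown fat thermogenesis (Ucp1, Cidea, Cpt1b, Otop1, Ppargc1a, Elovl3, and Prdm16), and each matched 1 of the 30560 gene identifiers in the counts. The transcript with the highest summed count stood for each gene. RNA-Seq was performed on thyroids of male Wistar rats, an outbred stock of laboratory rats, whose neck was exposed to X-rays at 4 Gy or sham-irradiated, with lead covering the rest of the body, and which were killed about 8 weeks later. The 1w0Gy (sham) and 1w4Gy (irradiated) rats were treated at 1 week of age and the 4m0Gy (sham) and 4m4Gy (irradiated) rats at 4 months of age, with 2 libraries in each group. The libraries were those with the better RNA integrity among the animals of a group. Each library came from bulk thyroid tissue, so fewer cells of a type and less RNA per cell cannot be told apart.

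Heat production in brown fat rests on UCP1, a carrier of the inner mitochondrial membrane that lets protons return without making ATP. Noradrenaline from sympathetic nerves acts on the β3-adrenergic receptor, cyclic AMP rises, stored fat is broken down, and the released fatty acids both fuel the mitochondria and activate UCP1. Rodents carry brown fat between the shoulder blades and in the neck, near the thyroid, and thyroid hormone made active inside the brown adipocyte raises Ucp1 transcription. PRDM16 and the coactivator PGC-1α (Ppargc1a) set up the brown fat programme, CIDEA sits on lipid droplets, CPT1B admits long-chain fatty acids to mitochondria, OTOP1 is a proton channel, and ELOVL3 lengthens saturated fatty acids.

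Counts on genes ranged from 14835400 to 18138102 per library. Thyroglobulin (Tg) took 18.5% to 21.3% of them, and this defining gene of the labelled tissue differed by no more than 1.18-fold between any 2 libraries. All libraries also held fat, skeletal muscle, and parathyroid RNA. The 24 matched of 27 general adipocyte markers, none of which was at 0, summed to between 1778 and 5759 CPM (counts scaled to library size after TMM), the 29 matched of 32 muscle markers to between 93.8 and 248.1 CPM, and the 4 parathyroid markers to between 642 and 7747 CPM. The second 4m0Gy library stood apart for fat genes. Its adipocyte markers summed to 3830 CPM, against 1790 CPM in the first 4m0Gy library and 1778 to 1949 CPM in 4m4Gy. The marker Scd alone held 1521 CPM of that sum, against 317 CPM in the first 4m0Gy library. By mean log2 CPM, where each marker weighs alike, the second and first 4m0Gy libraries stood at 5.72 and 4.95. The main results that rest on the second 4m0Gy library are given with and without it. To check its age label, each library was left out in turn, genes differing with age were called in the other 7, the fat lists were removed, and the share of these genes at which the left-out library lay nearer to its labelled age was counted. That share was 66.0% for the second 4m0Gy library, the lowest of 8, and 67.8% to 93.2% for the rest. Only listed genes were removed, so the share cannot be taken as free of fat content.

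Starts of 6 of the 7 genes matched RefSeq, and the 250 bases before the start of Ucp1, Cidea, and Ppargc1a are shown because the levels of Ucp1 and Cidea went together over the libraries while Ppargc1a followed another course. They are from build GRCr8, on the strand of each gene, at chr19:41721422-41721671 (minus strand), chr18:63164567-63164816 (plus strand), and chr14:63634058-63634307 (plus strand). Capitals mark every match to 6 motifs searched on both strands, the cyclic AMP response element TGACGTCA, its core TGACG, the nuclear receptor element AGGTCA, the EBF core CCCNNGGG, the TATA box TATAAA, and the CCAAT box CCAAT. The core is part of the full element.
Ucp1: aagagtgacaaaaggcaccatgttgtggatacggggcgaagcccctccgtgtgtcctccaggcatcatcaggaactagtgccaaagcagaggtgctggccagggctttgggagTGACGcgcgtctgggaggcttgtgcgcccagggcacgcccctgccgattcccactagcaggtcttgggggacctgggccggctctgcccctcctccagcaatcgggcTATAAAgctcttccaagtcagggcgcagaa
Cidea: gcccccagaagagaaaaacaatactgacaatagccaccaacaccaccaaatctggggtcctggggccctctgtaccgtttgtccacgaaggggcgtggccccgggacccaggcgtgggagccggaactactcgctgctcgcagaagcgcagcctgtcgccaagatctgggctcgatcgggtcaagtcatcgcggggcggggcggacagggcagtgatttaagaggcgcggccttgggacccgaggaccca
Ppargc1a: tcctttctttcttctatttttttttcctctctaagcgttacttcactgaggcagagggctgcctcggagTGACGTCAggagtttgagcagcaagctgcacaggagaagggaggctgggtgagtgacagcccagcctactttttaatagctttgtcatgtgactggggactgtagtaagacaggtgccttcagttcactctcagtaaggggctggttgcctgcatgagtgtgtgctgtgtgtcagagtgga
The Ppargc1a stretch held the full cyclic AMP response element 181 bases before the start, as 1.59% of 33469 rat promoters of the same length did. Ucp1 had the core alone, at 137 bases (core in 18.2% of promoters), and a TATA box at 30 bases (12.9%). None of the 6 motifs occurred in the Cidea stretch. A match describes these letters and is no measure of binding.

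Read per kilobase of transcript, mean expression over the 8 libraries ran from Cidea at 17.1 CPM per kb and Ucp1 at 14.4 to Prdm16 at 5.60, Cpt1b at 4.20, Ppargc1a at 3.14, and Otop1 at 0.852. Adiponectin (Adipoq), a hormone of all fat cells, stood at 39.7 CPM per kb on the same scale and the fatty acid carrier Fabp4 at 91.4. The order of Ucp1 and Cidea was not fixed. Ucp1 was above Cidea per kb in the first 1w0Gy and the second 4m0Gy libraries and below it in the other 6. Elovl3 went against its place in the set, with a count of 0 in 7 libraries and of 1 in the second 4m4Gy library. A count of 0 allows up to 3 counts, or 0.162 to 0.200 CPM depending on the library. It was too low to be tested. Limits of this kind cover counting error only. Zic1, a transcription factor that marks classical brown fat of the rodent trunk, was at 0 counts in every library, a member of the wider list chosen after its value was seen.

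Ucp1, the uncoupling protein itself, had the widest range of the 7 genes. It was at 43.6 and 25.3 CPM in the 1w0Gy libraries, 19.1 and 6.37 CPM in 1w4Gy, 1.54 and 39.2 CPM in 4m0Gy, and 1.20 and 2.01 CPM in 4m4Gy, a span of 36.4-fold. Every 1-week library exceeded 3 of the 4 libraries from the 4-month animals, and the second 4m0Gy library lay within the 1w0Gy range. Its means were 34.5 ± 12.9 CPM in 1w0Gy, 20.4 ± 26.6 CPM in 4m0Gy, 12.7 ± 9.02 CPM in 1w4Gy, and 1.60 ± 0.573 CPM in 4m4Gy (SD, n = 2 each). In that order 1w0Gy overlapped 4m0Gy and 4m0Gy overlapped 1w4Gy, whereas 1w4Gy and 4m4Gy did not overlap. The 25.4-fold gap between the 4m0Gy libraries was the third largest of 15684 genes tested over the 8 libraries, where the median gene differed by 0.14 on the log2 scale.

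Cidea, the lipid droplet protein, repeated the pattern over a narrower span. It was at 29.7 and 26.2 CPM in 1w0Gy, 17.3 and 10.8 CPM in 1w4Gy, 6.89 and 25.1 CPM in 4m0Gy, and 7.99 and 7.19 CPM in 4m4Gy. The second 4m0Gy library was again close to 1w0Gy, and at 3.41 times the mean of the other libraries from 4-month animals. Cpt1b, the muscle and brown fat form of the carnitine transferase, was at 16.0 and 15.9 CPM in 1w0Gy, 12.0 and 9.59 CPM in 1w4Gy, 7.92 and 18.1 CPM in 4m0Gy, and 8.46 and 7.13 CPM in 4m4Gy. Its highest value of all was in the second 4m0Gy library. Otop1, the proton channel, was low, at 3.46 and 3.86 CPM in 1w0Gy, 3.78 and 2.41 CPM in 1w4Gy, 1.74 and 4.22 CPM in 4m0Gy, and 1.27 and 1.56 CPM in 4m4Gy. Its raw counts were only 19 to 72 per library, and it too peaked in the second 4m0Gy library.

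The regulators of the set, Ppargc1a and Prdm16, spanned narrower ranges. Ppargc1a was at 7.30 and 7.44 CPM in 1w0Gy, 13.0 and 9.96 CPM in 1w4Gy, 9.72 and 9.50 CPM in 4m0Gy, and 8.46 and 9.20 CPM in 4m4Gy. It was lowest in the 1w0Gy libraries, where Ucp1 and Cidea were high, and the 4m0Gy libraries differed by 1.02-fold. Prdm16 was at 55.1 and 45.6 CPM in 1w0Gy, 43.0 and 41.3 CPM in 1w4Gy, 43.7 and 47.1 CPM in 4m0Gy, and 36.6 and 41.4 CPM in 4m4Gy. All its values lay within 1.51-fold, and the second 4m0Gy library ranked 2 of 8, as it did for Ucp1. In each age group both irradiated libraries were below both sham libraries, as were 18.0% of all genes in each comparison. The share of genes lower at both ages together was not counted.

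**Figure D1:**
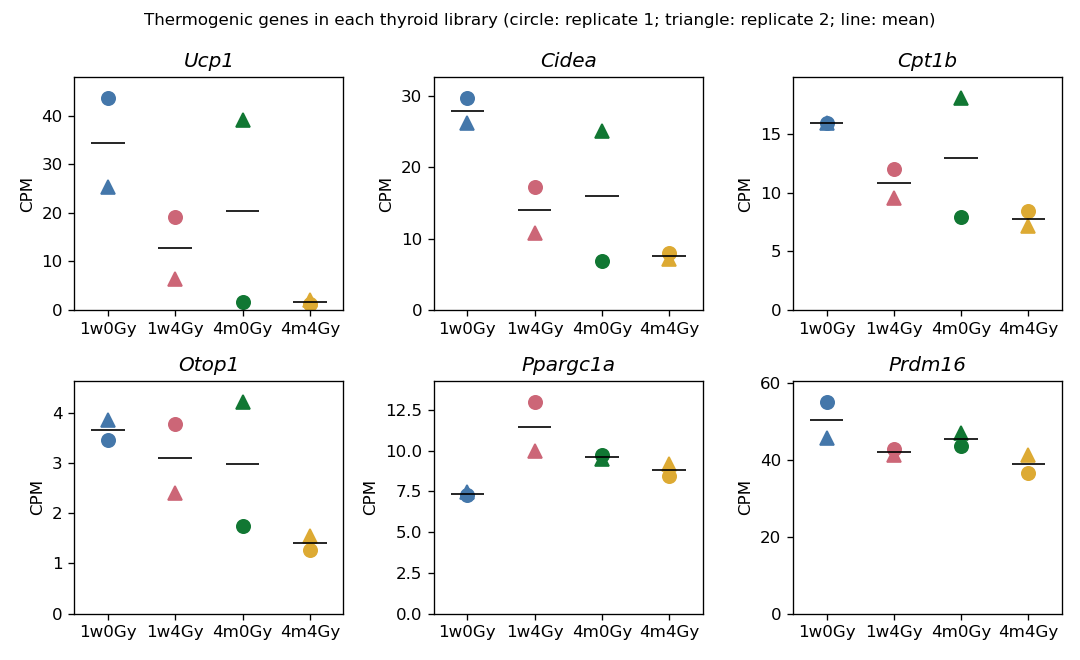
CPM of the 6 expressed members (y axis, from 0) in the 4 groups (x axis), with a circle for replicate 1, a triangle for replicate 2, and a line at the mean. In the Ucp1, Cidea, Cpt1b, and Otop1 panels the 4m0Gy triangle lies far above the 4m0Gy circle (39.2 against 1.54 CPM for Ucp1), whereas the 4m0Gy points of Ppargc1a and Prdm16 lie together.

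The comparison of 1w4Gy with 1w0Gy asked how the genes differed after neonatal irradiation. Ucp1, Cidea, Cpt1b, and Prdm16 were lower in both 1w4Gy libraries than in both 1w0Gy libraries (18.0% of all genes), Ppargc1a was higher (17.6%), and Otop1 overlapped. None of the 6 tested members passed the call rule, which asked for an adjusted p under 0.05 over all genes and a fold change above 1.5 or under 0.5. The rule called 0.00651% of 15359 genes, 1 in number, in edgeR's quasi-likelihood test. An unadjusted p under 0.05 was met by 4 of the 6, against 5.68% of all genes, and by 3 of 6 in DESeq2. Groups that did not overlap were found for 5 of the 6, against 35.5% of all genes, in a set chosen with results of these libraries known.

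Ucp1 had a neonatal log2 fold change of -1.43 (standard error, SE, 0.65; adjusted p = 0.888, edgeR), its means standing at 0.370-fold. The value was -2.44 without the first 1w4Gy library and -0.85 without the second. Cidea had -0.99 (SE 0.21, adjusted p = 0.727, edgeR). The study had picked Cidea for its neonatal sequencing list on these same libraries, so its direction here is no independent evidence. The study's quantitative RT-PCR also gave a lower Cidea level after neonatal irradiation, but without a mark of statistical difference. Cidea is absent from the genes that the study kept after that measurement. In DESeq2's Wald test Cidea had an adjusted p of 0.0151 with a log2 fold change of -0.99 that just missed the fold limit, in a test that called 0.0781% of genes. It passed the whole rule in edgeR with the replicate number as a block (log2 fold change -1.01, adjusted p = 0.0373; 0.0716% of genes called) and without the first 1w4Gy library (-1.37, adjusted p = 0.00390, the lone irradiated library taken to vary like the sham ones; 0.241% called). Cpt1b had -0.56 (SE 0.15), Prdm16 -0.26 (SE 0.11), and Otop1 -0.24 (SE 0.28) on the log2 scale, with edgeR adjusted p-values of 0.850, 0.875, and 0.932. Otop1 turned to 0.049 without the second 1w4Gy library and was at -0.60 without the first. Ppargc1a went the other way at 0.64 (SE 0.18, adjusted p = 0.850, edgeR). The median of the 6 was -0.41, against 0 to 2 decimals over all genes tested. Markers of other cell types also differed in this comparison, none of them passing the rule. All 4 parathyroid markers were lower with groups apart (18.0% of all genes), with a median of -0.61. Endothelial markers were higher in 8 of 9, with groups apart for 5 (17.6% of all genes) and a median of 0.21. Muscle markers were lower in 19 of 23 (median -0.50), with groups apart for 1 downward and 1 upward. The muscle median was 0.57 without the second 1w0Gy library, with 4 of 24 markers below 0, and 0.06 without the second 1w4Gy library. It was -1.11 without the first 1w0Gy library and -1.32 without the first 1w4Gy library. The part of these cell types in the results for the members was not tested.

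The comparison of 4m4Gy with 4m0Gy posed the same question in adults, and it turned on the second 4m0Gy library. Otop1, Prdm16, and Ppargc1a were lower in both irradiated libraries than in both sham libraries, as were 18.0% of all genes. Ucp1, Cidea, and Cpt1b overlapped, since the first 4m0Gy library lay at the irradiated level or below it. No member passed the rule, which called 0.0197% of 15253 genes, 3 in number. An unadjusted p under 0.05 was met by 2 of 6 members, Otop1 and Prdm16, in edgeR and by 2 of 6 in DESeq2, against 8.39% of all genes in edgeR.

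Ucp1 had an adult log2 fold change of -3.67 with a standard error of 2.25 (adjusted p = 0.794, edgeR). Without the second 4m0Gy library it was 0.04 (SE 0.49, adjusted p = 0.990, edgeR), a value within its error of 0. Without the first 4m0Gy library it was -4.61 (adjusted p = 2.94e-09, edgeR). Cidea went from -1.09 (SE 0.84) to 0.12 and -1.73 in the same fits, and Cpt1b from -0.75 (SE 0.45) to -0.04 and -1.22. With the high library as the lone sham sample, taken to vary like the irradiated ones, Ucp1, Cidea, and Cpt1b passed the rule (0.326% of all genes), and with it left out 0 of 6 did (0.334%). Otop1 was at -1.09 (SE 0.46, adjusted p = 0.581, edgeR) and at -0.32 without the high library. Prdm16 was at -0.23 (SE 0.09, adjusted p = 0.556, edgeR) and Ppargc1a at -0.13 (SE 0.17, adjusted p = 0.881, edgeR). The median of the 6 was -0.92 with all 4 libraries and -0.10 without the second 4m0Gy library, against 0.01 over all genes.

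**Figure D2:**
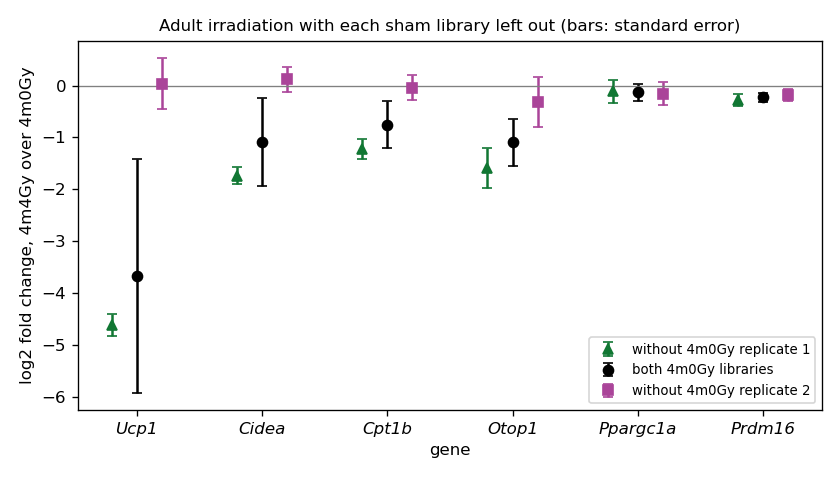
Adult log2 fold change of each member (y axis, 4m4Gy over 4m0Gy, bars for SE) with both sham libraries (circles), without replicate 1 (triangles), and without replicate 2 (squares). For Ucp1 the value moves from -3.67 to -4.61 or to 0.04, and for Ppargc1a and Prdm16 the symbols nearly coincide.

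Whether the response differed between the ages was tested with the interaction term over all 8 libraries, which sets the 4-month log2 fold change minus the 1-week one. EdgeR called 0 of 6 members and 0.0% of 15684 genes, and DESeq2 called 26 genes, none of them a member. An unadjusted p under 0.05 was met by 1 member in edgeR and by 1 in DESeq2, against 9.12% of all genes in edgeR. That member was Ppargc1a, with an interaction of -0.77 on the log2 scale (SE 0.24, adjusted p = 0.425, edgeR). Ppargc1a was thus higher in both 1w4Gy libraries and lower in both 4m4Gy libraries than in their sham libraries, which 4.62% of all genes also were. Ucp1 had -2.24 with a standard error of 2.32, and 1.48 without the second 4m0Gy library. Otop1 had -0.85 (SE 0.58), Cpt1b -0.19 (SE 0.49), Cidea -0.10 (SE 0.87), and Prdm16 0.03 (SE 0.15). Without the second 4m0Gy library Otop1 was at -0.07, Cpt1b at 0.52, and Cidea at 1.12. Cidea also turned to 0.28 without the first 1w4Gy library. With all libraries no difference between the ages was detectable for them at this spread.

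The 4-month animals were compared with the 1-week animals over all 8 libraries with dose as a term, a comparison that uses the same libraries as both irradiation comparisons and in which age at irradiation and age at sampling go together. All 6 log2 fold changes lay below 0, and none of the 6 passed an adjusted p of 0.05, against 4.27% of 15684 genes called. An unadjusted p under 0.05 was met by 0 members in edgeR and 2 in DESeq2, against 20.5% of all genes in edgeR. Ucp1 was at -1.51 (SE 1.05), Cidea at -0.84 (SE 0.39), Otop1 at -0.66 (SE 0.30), and Cpt1b at -0.38 (SE 0.22), with edgeR adjusted p-values of 0.512, 0.295, 0.250, and 0.397. Without the second 4m0Gy library Cidea (-1.33), Otop1 (-1.10), and Cpt1b (-0.69) passed, with edgeR adjusted p-values of 0.0450, 0.0362, and 0.0384, and Ucp1 had -3.58 (adjusted p = 0.0598, edgeR). In that fit 3.77% of genes were called. That library was singled out for high fat genes, these members among them, so passing without it is no independent evidence of an age difference. Leaving out any other single library called 0 members. Prdm16 was at -0.13 (SE 0.07) and Ppargc1a at -0.0041 (SE 0.16) with all libraries. Ppargc1a, compared with age in the sham libraries alone, stood at 0.38 (SE 0.15, adjusted p = 0.251, edgeR).

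**Figure D3:**
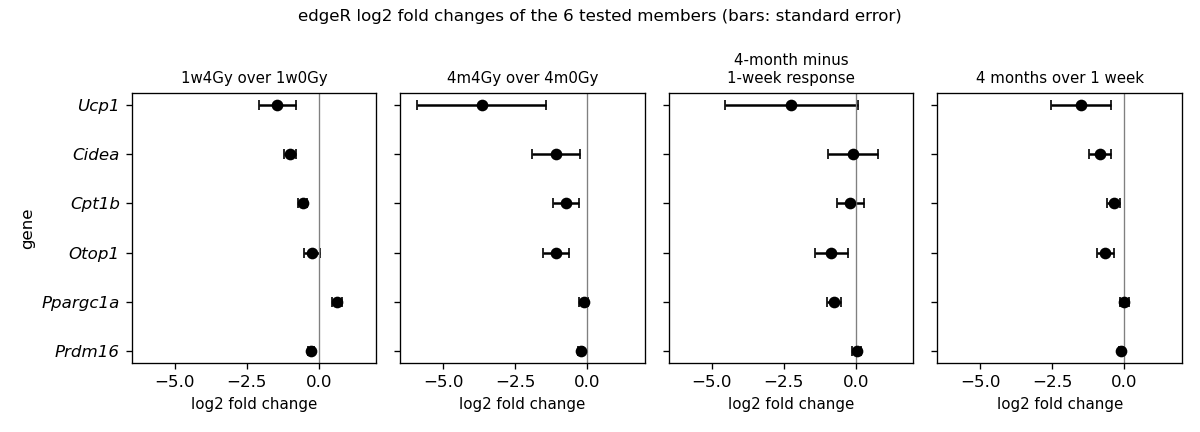
EdgeR log2 fold changes (x axis, bars for SE) of the 6 tested members (y axis) after neonatal irradiation, after adult irradiation, for the difference between these responses, and with age. The bars of Ucp1 are the widest in every panel, and Ppargc1a is the only member above 0 in the neonatal panel, at 0.64.

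The wider thermogenic list held 51 matched of 54 genes in 6 roles. After neonatal irradiation 0 of 48 tested genes passed the rule. An unadjusted p under 0.05 was met downward by 8 of them (2.37% of all genes in that direction) and upward by 1 (3.31%), while DESeq2 had 2 in all. The median was -0.12. Adrb3, the β3-adrenergic receptor through which noradrenaline acts, was at 7.13 and 9.11 CPM in 1w0Gy and 5.20 and 4.21 CPM in 1w4Gy, a log2 fold change of -0.79 (SE 0.22, adjusted p = 0.850, edgeR). It stood at 3.35 and 4.63 CPM in 4m0Gy and 0.999 and 1.75 CPM in 4m4Gy, at -1.54 (SE 0.36, adjusted p = 0.307, edgeR). Irradiated libraries were thus below sham libraries at both ages with no overlap. In each comparison 18.0% of all genes were apart downward. In adults 0 of 45 genes passed, with a median of -0.05, and 3 had an unadjusted p under 0.05, all downward (4.96% of all genes in that direction), against 2 in DESeq2. Without the second 4m0Gy library the adult median turned to 0.02, 20 of 45 genes were below 0 against 30 with it, and 2 of the 5 genes at an unadjusted p under 0.05 were downward. For the interaction 0 of 49 genes passed in either tool, and 2 had an unadjusted p under 0.05 in edgeR. Among the other roles, the gene with the largest neonatal change was Pparg, the master regulator of fat cells, at -0.36, the muscle and brown fat carrier Ucp3 at -0.70, the lipid droplet protein Plin5 at -0.80, the creatine kinase Ckmt2 at -0.44, and the amino acid transporter Slc36a2 at -0.46 on the log2 scale. None of these 5 passed. Ebf2, a factor that primes brown fat genes, was at -0.13 after neonatal and 0.29 after adult irradiation. Cox7a1, a respiratory chain subunit of muscle and brown fat, was at 0.49 and 0.44. For Cox7a1 irradiated libraries were above sham libraries at both ages with no overlap (17.6% of all genes in the neonatal comparison). The adult upward share was not counted. Nor was the share of genes apart in the same direction at both ages, as Adrb3 and Cox7a1 were.

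With age, 9 of 49 tested genes of the wider list passed, 8 downward (2.39% of all genes in that direction) and 1 upward (1.87%), with a median of -0.06. Dio2, the deiodinase that makes active thyroid hormone inside brown adipocytes and which thyroid tissue can also express, was at 11.1 and 7.96 CPM in 1w0Gy, 7.55 and 8.23 CPM in 1w4Gy, 2.12 and 3.34 CPM in 4m0Gy, and 2.73 and 2.59 CPM in 4m4Gy. All 4 libraries from 4-month animals were below all 4 from 1-week animals, at -1.69 on the log2 scale (SE 0.18, adjusted p = 8.42e-04, edgeR). Of the 49 list genes, 9 were apart downward in this way and 3 upward, and the share over all genes was not counted. In the second 4m0Gy library, where Ucp1 was high, Dio2 was below every 1-week library. Adrb3 (-1.33), Slc36a2 (-1.32), and Ucp3 (-1.26) also fell, with edgeR adjusted p-values of 0.00981, 0.0171, and 0.0454. Smaller falls were found for Prkar2b (-0.58), a regulatory subunit of the cyclic AMP-dependent kinase, the fatty acid activating enzyme Acsl1 (-0.49), the calcium pump Atp2a2 (-0.43), and the factor Nfia (-0.29). The gene that rose was the clock repressor Nr1d1 (1.24, adjusted p = 4.53e-04, edgeR). Without the second 4m0Gy library 7 genes of the list fell and 1 rose. The number that fell was 4 without the second 1w0Gy library, 5 without the first 1w0Gy, the second 1w4Gy, the first 4m0Gy, or the second 4m4Gy library, 5 with TPM, and 2 in the sham libraries alone.

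**Figure D4:**
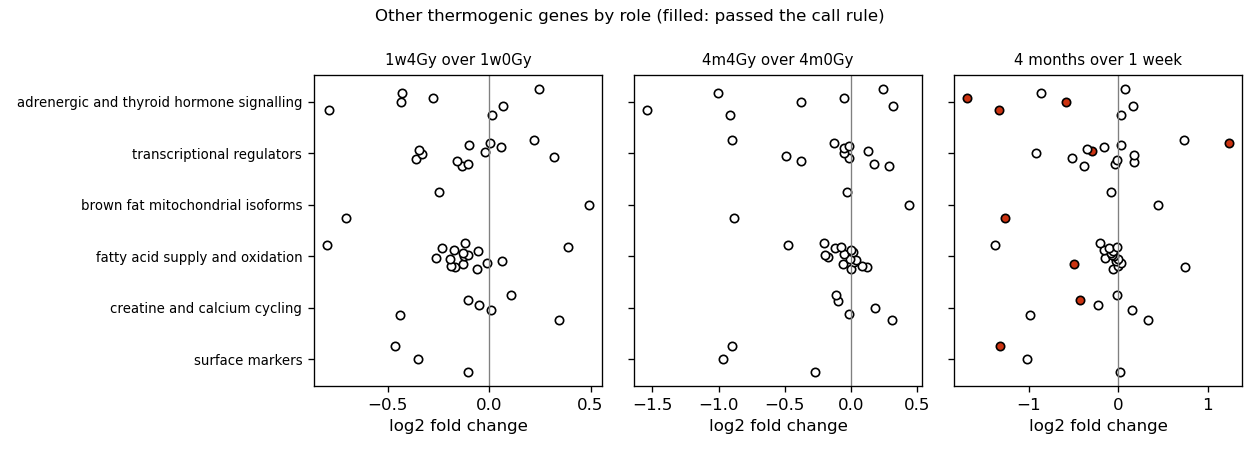
Log2 fold changes (x axis) of the tested genes of the wider thermogenic list by role (y axis) after neonatal irradiation, after adult irradiation, and with age, with filled points for genes that passed the call rule. Filled points occur in the age panel only, 8 to the left of 0 and 1 to the right, where Nr1d1 stands at 1.24.

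General adipocyte markers, listed apart from the thermogenic genes, were examined in the same comparisons. After neonatal irradiation the groups were apart downward for 18 of 24 (18.0% of all genes). All 24 had log2 fold changes below 0 (50.0% of all genes). An unadjusted p under 0.05 was met by 15 in edgeR (16 in DESeq2), all downward, as in 2.37% of all genes. The rule was passed by 0 in either tool, and the median was -0.40. Plin1, the coat protein of fat droplets, was at 64.7 and 55.0 CPM in 1w0Gy and 34.1 and 32.5 CPM in 1w4Gy, and leptin (Lep) at 13.9 and 8.82 CPM against 4.52 and 5.82. Adipoq (-0.63), Fabp4 (-0.64), and the droplet protein Cidec (-0.41) lay in the same range on the log2 scale, with groups apart for each. In adults 23 of 24 were below 0 (48.1% of all genes) with a median of -0.42. Groups were apart downward for 6 (18.0% of all genes), and 0 passed. Without the second 4m0Gy library 10 of 24 were below 0 and the median was 0.04. With age all 24 were below 0 (50.7% of all genes), the median was -0.67, and 8 fell, against 2.39% of all genes. That count depended on the fit. It was 17 in DESeq2, 12 without edgeR's robust option, 15 without the second 4m0Gy library, 5 without the filter on low counts, 4 without the first 1w0Gy, the first 1w4Gy, or either 4m4Gy library, 5 without the second 1w4Gy library, and 0 in the sham libraries alone. The summed level of the markers was 4425 to 5759 CPM in 1w0Gy, 3765 to 3772 CPM in 1w4Gy, 1790 to 3830 CPM in 4m0Gy, and 1778 to 1949 CPM in 4m4Gy, and its part in the results for the members was not tested.

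The members were also read relative to the mean log2 CPM of these 24 markers in the same library, as a description. Relative Ucp1 stood at -0.82 and -1.29 for 1w0Gy, -1.34 and -3.00 for 1w4Gy, -4.21 and -0.42 for 4m0Gy, and -4.67 and -3.79 for 4m4Gy. It spanned 4.25 on the log2 scale, where the markers themselves spanned 1.40. Both 1w4Gy libraries were below both 1w0Gy libraries on this scale too, although the first 1w4Gy library (-1.34) lay close to the second 1w0Gy library (-1.29). Relative Cidea was at -1.38 and -1.24 for 1w0Gy, -1.49 and -2.25 for 1w4Gy, -2.14 and -1.06 for 4m0Gy, and -2.05 and -2.01 for 4m4Gy. Relative Cpt1b and Otop1 overlapped between 1w0Gy and 1w4Gy, with mean differences of -0.11 and 0.20. Relative Ppargc1a was higher in both 1w4Gy libraries, at -1.89 and -2.37 against -3.38 and -3.04 in 1w0Gy. Relative Prdm16 was higher as well, by 0.21 in the mean, although its CPM was lower. The marker mean itself differed by -0.46 between 1w4Gy and 1w0Gy, so a gene that fell by less rises on this scale. Which cells the RNA of these genes came from was not tested.

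**Figure D5:**
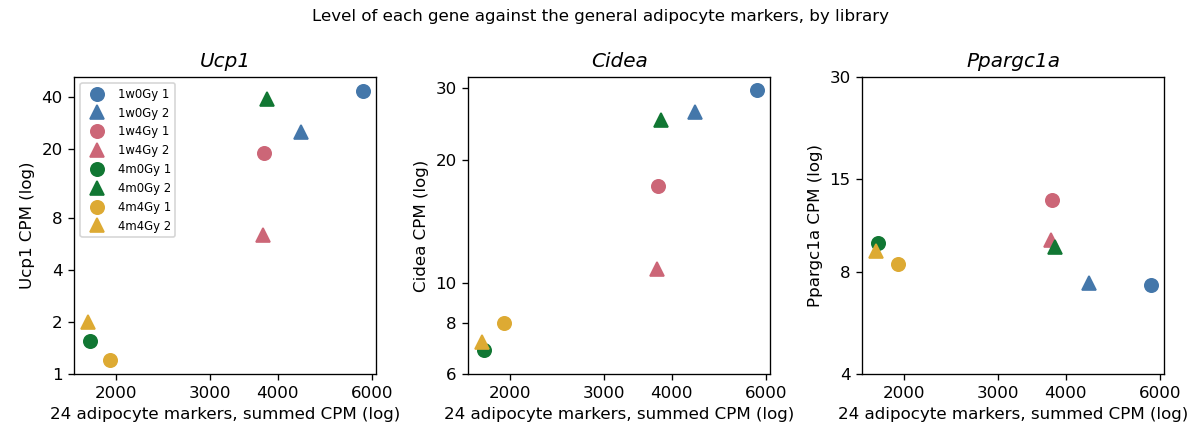
CPM of Ucp1, Cidea, and Ppargc1a (y axes, log scale) against the summed CPM of the 24 adipocyte markers (x axis, log scale), 1 point per library. Scd alone holds 1521 CPM of the marker sum in the second 4m0Gy library. For Ucp1 and Cidea 3 of the 4 libraries from 4-month animals lie at the lower left, the second 4m0Gy library (3830 CPM of markers) lies high, and the 1w4Gy libraries share nearly the same x value at Ucp1 levels of 19.1 and 6.37 CPM. Ppargc1a stays between 7.30 and 13.0 CPM.

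Cpt1b, Ppargc1a, Ucp3, and Cox7a1 are also known from skeletal muscle. Muscle markers differed widely within groups. Acta1, the actin of skeletal muscle, was at 4.70 and 33.8 CPM in 1w0Gy, 18.8 and 1.98 CPM in 1w4Gy, 16.4 and 3.81 CPM in 4m0Gy, and 5.46 and 15.4 CPM in 4m4Gy, while the fast myosin Myh4 ranged 36.3-fold and the muscle creatine kinase Ckm 19.6-fold over the libraries. The muscle sum was lowest, at 93.8 CPM, in the second 4m0Gy library, where Cpt1b was highest. Ppargc1a in 1w0Gy was at 7.30 and 7.44 CPM beside muscle sums of 112.5 and 248.1 CPM. The part of muscle RNA in the levels of these genes was not tested.

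The genes most like Ucp1 were ranked by Pearson's r of log2 CPM over the 8 libraries, which share their groups and the high 4m0Gy library, so the values are descriptions. Cidea ranked 4 of 15683 genes (r = 0.975, Spearman's rho = 0.905), Otop1 8 (r = 0.967), and Cpt1b 12 (r = 0.950). Prdm16 ranked 450 (r = 0.778) and Ppargc1a 9186 (r = -0.125). The rest of the first 10 were Oas1a (r = 0.993), AABR07058464.1, Apol9a, Efs, Klrk1, Cd200r1, Acap1, and AC128859.3 (r = 0.966), which are on none of the lists used here. Their levels spanned a narrower range than that of Ucp1, Oas1a lying between 13.6 and 20.9 CPM. The median r was 0.866 for the 24 adipocyte markers, 0.527 for 49 genes of the wider thermogenic list, 0.668 for 7 nerve markers, 0.261 for 4 parathyroid markers, 0.149 for 9 endothelial markers, 0.025 for 3 thymus markers, -0.13 for 25 muscle markers, and -0.01 for all genes. All 7 nerve, all 24 adipocyte, and all 4 parathyroid markers had an r above 0, as did 7690 of all 15683 genes. For 13 thyroid follicle markers the median r was -0.297, with 4 above 0.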

How the data were processed

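Thyroid RNA from 2 rats in each of 4 groups was sequenced after directional library preparation. Per the submitters' processing notes, the authors used HISAT2 2.2.1 and featureCounts 2.0.0, and they deposited raw counts for 54991 transcripts, with TPM and RPKM made from them. The genome build is not given in the sources used here. The deposited counts were tested and the deposited TPM served only as an alternative, as log2(TPM + 1) in limma. RPKM was not used. The transcript with the highest total stood for each gene. RefSeq names and starts are from GRCr8.

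Tests were run in R 4.3.3 with edgeR 4.0.16 (TMM, filterByExpr, robust quasi-likelihood test, Benjamini-Hochberg adjustment over all genes tested), and checked on simulated counts. DESeq2 1.42.0 and limma 3.58.1 gave alternatives. CPM were scaled by TMM, and log2 CPM used a prior count of 2. Irradiation was fitted on the 4 libraries of an age, with the study's fold limits of 1.5 and 0.5, and age and the interaction on all 8. Replicates are separate rats, and the 2 libraries of each group differed by more than sampling noise (chi-square per degree of freedom 7.97 to 16.2). Genes named are the 7 members, list genes called with age, the largest neonatal change per role, a few fixed fat, muscle, and thyroid genes, and the 10 genes most like Ucp1. The members and lists were chosen with earlier results of these data known. A few list genes were not analysed here.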

Additional observations from a re-analysis of the deposited data

Results flagged for a closer look

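Ppargc1a was higher in both 1w4Gy libraries than in both 1w0Gy libraries. It was lower in both 4m4Gy libraries than in both 4m0Gy libraries, and that opposite direction drew attention to it. Its log2 fold change was 0.64 after neonatal irradiation but -0.13 after adult irradiation, the latter smaller than its standard error. The interaction was -0.77 on the log2 scale (standard error 0.24, unadjusted p = 0.00882, adjusted p = 0.425 in edgeR's test over all genes), so it failed the correction. The same opposite pattern was found in 725 of 15684 genes, or 4.62%. Groups of 2 libraries were too small for a test of single outlying samples.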

How the results depend on the processing

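The number of members called was 0 in the 4 comparisons and also 0 with DESeq2 and its size factors, the upper quartile, other filters, sums over transcripts or the longest transcript, TPM with limma, edgeR without its robust option (chosen after seeing the data), and, where tried, all 8 samples, no fold limit, or sham libraries alone. With the replicate number as a block, neonatal irradiation called 1 member, Cidea, and the other comparisons 0. The numbers are not taken as pairs, since deviations of same-numbered libraries correlated between -0.23 and 0.15. The block moved the genes called from 1 to 11 after neonatal irradiation, from 3 to 12 after adult irradiation, and from 669 to 694 with age. DESeq2 called 12 genes after neonatal irradiation, 5 after adult irradiation, 26 for the interaction, and 1038 with age, and edgeR without its robust option 0 after either irradiation. Leaving out each library gave 0 to 1 members called after neonatal irradiation, 0 to 3 after adult irradiation, 0 for the interaction, and 0 to 3 with age.

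Ucp1 after neonatal irradiation ranged from -2.44 to -0.85 when single libraries were left out. Some log2 fold changes of members turned sign when single libraries were left out. Otop1 ranged from -0.60 to 0.049 after neonatal irradiation, and Ucp1 from -4.61 to 0.039 and Cidea from -1.73 to 0.12 after adult irradiation. The interaction ranged from -3.17 to 1.48 for Ucp1, -0.74 to 1.116 for Cidea, -0.66 to 0.52 for Cpt1b, and -0.10 to 0.15 for Prdm16, and Ppargc1a with age from -0.091 to 0.16. The interaction of Cidea was 0.16 with TPM, that of Prdm16 was -0.048 with sums over transcripts and -0.039 with TPM, and Ppargc1a with age was 0.38 in sham libraries alone. The cause was not tested beyond the libraries named. With 2 libraries a group the spread between libraries rests on few samples, and the counts of Otop1, 19 to 72 per library, add counting error of their own.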
